A study of Mus musculus with 847 samples.

Results

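Brain endothelial cells form the blood-brain barrier, and 10 genes of these cells are described here across the brain regions and ages of one mouse series. They were taken as a named list, Cldn5, Pecam1, Flt1, Ly6c1, Slco1a4, Tek, Kdr, Abcb1a, Slc2a1 and Mfsd2a, and all 10 are among the 21076 genes of the deposited count table. The list rests on what the genes are known for, not on a value measured in these samples. Earlier results of these data were, however, known when it was chosen. RNA sequencing was done on 847 bulk tissue libraries, each from 1 region of 1 mouse, with 15 regions, 59 mice and 7 ages. All mice were of the inbred strain C57BL/6JN, and the labels name no treatment, transgene or deletion in any group.

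The regions were motor, visual and entorhinal cortex, anterior and posterior hippocampus, hypothalamus, thalamus, caudate putamen, pons, medulla, cerebellum, olfactory bulb, corpus callosum, choroid plexus and subventricular zone. Groups at 3, 12, 15 and 18 months held 5 females and 5 males each. At 21 months there were 5 females and 6 males. The 26-month group was 5 males and the 28-month group 3 males, so the oldest ages hold 1 sex. The labels number the mice, with 1 to 15 at 12 and 26 months, 16 to 56 at 3, 15, 18 and 21 months and 57 to 59 at 28 months, so part of the contrast between ages runs along these number blocks. Each mouse is 1 replicate.

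Endothelial cells line every vessel of the brain, and in most of it they are joined by tight junctions, take up few vesicles and carry selective transporters, which together make the blood-brain barrier. Vessels of the choroid plexus stroma and of the circumventricular organs are instead fenestrated and leaky, and there the barrier lies in the epithelium. Endothelial cells are a small share of brain tissue. In such bulk tissue, fewer endothelial cells and less RNA per cell cannot be told apart.

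Libraries held between 481444 and 26756735 counted reads, with a median of 6716032, and 55 had fewer than 2000000. Each region was sampled in 51 to 59 mice, and 37 mice have all 15 regions. By their expression, 16 libraries lay nearer to the mean of another region than to their own, furthest for the entorhinal cortex of mouse 52 (r = 0.9083 to pons and 0.6937 to its own region). Results include these libraries. Without them, 4 age slopes given below were no longer called by edgeR, Mfsd2a in caudate putamen (adjusted p = 0.0715) and Kdr, Pecam1 and Ly6c1 in posterior hippocampus (0.0516, 0.0724 and 0.0712), and the rise of Pecam1 per mouse was lost as well. The libraries labelled choroid plexus contained the epithelial marker Ttr at 512 to 11200 counts per 1000000 reads (CPM) with a median of 5460, and also the neuronal Snap25 at a median of 2710 and the myelin gene Mbp at a median of 5680. Plvap, which marks the diaphragms of fenestrated endothelium, had a median of 11.6 CPM there against 14.4 in motor cortex, so fenestrated vessels did not stand out in these libraries by that gene.

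Of the 10 genes, 3 have a close relative in the genome whose reads could be taken for theirs. Abcb1a and Abcb1b lie side by side on chromosome 5 and both encode P-glycoprotein, the drug efflux pump. Their coding sequences were 88.2% identical, and 20.3% of all 50-base stretches of Abcb1a also occurred in Abcb1b, the longest identical run being 338 bases. Ly6c1 shared 41.3% of its 50-base stretches with the leukocyte gene Ly6c2 (92.7% identical). Slco1a4 shared 5.1% with Slco1a5 (89.4% identical). The counting program is not given in the sources used here, so how shared reads were counted is not known. Because these pairs decide how the values of Abcb1a, Ly6c1 and Slco1a4 can be read, for each pair the first 90 coding bases with the median number of differences are shown, from GENCODE transcripts on GRCm38, coding strand, 5′ to 3′, with bases that differ from the partner in capitals.
Abcb1a: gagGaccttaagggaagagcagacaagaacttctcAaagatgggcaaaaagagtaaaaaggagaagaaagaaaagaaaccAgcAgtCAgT
Abcb1b: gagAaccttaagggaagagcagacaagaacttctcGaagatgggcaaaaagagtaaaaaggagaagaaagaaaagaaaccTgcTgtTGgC
Ly6c1: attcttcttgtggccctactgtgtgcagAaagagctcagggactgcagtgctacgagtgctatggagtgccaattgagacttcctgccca
Ly6c2: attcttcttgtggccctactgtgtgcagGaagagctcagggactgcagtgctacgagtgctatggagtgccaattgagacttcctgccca
Slco1a4: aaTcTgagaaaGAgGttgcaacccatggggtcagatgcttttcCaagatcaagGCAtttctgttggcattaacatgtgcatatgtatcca
Slco1a5: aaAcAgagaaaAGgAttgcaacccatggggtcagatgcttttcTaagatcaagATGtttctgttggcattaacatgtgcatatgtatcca
In these windows 7 bases separate the Abcb1 pair, 1 separates the Ly6c pair and 9 separate the Slco1a pair. Ly6c2 averaged at most 2.02 CPM in any region and Slco1a5 at most 2.37 CPM, the latter in choroid plexus. The highest Ly6c2 value of a library was, however, 65.0 CPM in cerebellum and 40.1 in visual cortex. Ly6c1 averaged 66.0 and 48.3 CPM in these regions. Abcb1b averaged between 1.42 CPM in olfactory bulb and 4.40 CPM in posterior hippocampus.

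Mfsd2a had the most called age slopes of the 10 genes, so the stretch upstream of its start is printed. RefSeq promoter windows (GRCm38.p6, 250 bases before to 50 after a gene's start) were found for 9 of the 10 genes, all but Pecam1. The 250 bases before the start of Mfsd2a lie at chr4:122961189-122961438 on the minus strand, and the capitals mark a match to CTTTGA, the core letters bound by TCF and LEF factors of the Wnt pathway, 115 bases before the start.
Mfsd2a upstream: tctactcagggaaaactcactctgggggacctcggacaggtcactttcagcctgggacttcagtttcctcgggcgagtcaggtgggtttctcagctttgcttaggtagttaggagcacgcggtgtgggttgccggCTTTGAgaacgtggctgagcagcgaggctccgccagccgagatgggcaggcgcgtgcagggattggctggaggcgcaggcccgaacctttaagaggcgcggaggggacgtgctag
On either strand, CTTTGA occurred in windows of 2 of the 9 genes, Mfsd2a and Abcb1a, against 16.0% of all 32851 windows. The Abcb1a window (chr5:8566841-8567140) belongs to a RefSeq start upstream of the GENCODE gene start used for Abcb1a elsewhere and does not reach it. ACAAAG, a SOX factor motif, occurred in 3 of 9 (Ly6c1, Tek and Abcb1a) against 18.7%. The counts are by gene, while the shares are of single windows. Ly6c1 had 2 windows, and ACAAAG was in 1 of them. GGAA, the core of ETS factor sites, occurred in 7 of 9 against 96.0%, and the longer ETS form CAGGAAG, which contains GGAA, in 0 of 9 against 13.3%. These are letter matches only.

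Compared per length, as the mean CPM over the 15 regions divided by the kilobases of annotated exon, 2 of the genes stood well above the rest. Slc2a1, the glucose transporter GLUT1 of the barrier, reached 33.5 CPM per kilobase, and Ly6c1, a glycolipid-anchored surface protein of brain endothelium, reached 31.5. Cldn5, the main claudin of endothelial tight junctions, followed at 12.4. Lower levels were found for the lysophospholipid transporter Mfsd2a at 7.19, the organic anion transporter Slco1a4 at 6.3 and the VEGF receptor Flt1 at 4.83. The lowest per-length levels were those of the adhesion protein Pecam1 at 2.6, the angiopoietin receptor Tek at 2.27, Abcb1a at 1.9 and the VEGF receptor Kdr at 1.39.

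Levels of the junction and surface genes differed by up to 3.07-fold between the highest and the lowest region mean. Cldn5 (chr16:18776847-18778262, GRCm38) was highest in olfactory bulb, at 38.0 ± 7.99 CPM (SD, n = 58), where values ran from 22.9 to 54.7 with a median of 39.2. The next region, cerebellum, averaged 21.0, and the lowest, subventricular zone, 12.4 ± 2.21 (n = 55). Olfactory bulb thus stood apart, while each of the other 13 steps down the order was smaller than the SD of the neighbours. Pecam1 (chr11:106654217-106750628) ran from 21.1 CPM in pons to 12.1 in entorhinal cortex, a 1.74-fold range. Ly6c1 (chr15:75044018-75048830) ran from 75.2 in medulla to 37.1 in entorhinal cortex, a 2.03-fold range.

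The receptors Flt1 and Tek had the narrowest ranges of the 10 genes, while Kdr had one close to that of Ly6c1. Flt1 (chr5:147561604-147726011), which binds VEGF and can act as a decoy for it, ran from 75.8 CPM in caudate putamen to 57.7 in entorhinal cortex, only 1.32-fold. Tek (chr4:94739289-94874976) ran from 12.8 in medulla to 9.13 in hypothalamus, 1.4-fold. Kdr (chr5:75932827-75978458), the main signalling receptor for VEGF, was 15.0 ± 2.77 (n = 58) in olfactory bulb and 7.54 ± 2.48 (n = 58) in cerebellum, a 1.99-fold range. Cerebellum was the region that stood apart for Kdr, below pons at 10.8, the next one up.

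Transporters had their highest values in the hindbrain or the olfactory bulb. Slc2a1 (chr4:119108711-119137983) averaged 158.5 ± 21.1 CPM in medulla (n = 58) and 157.9 ± 21.4 in pons (n = 51), which did not differ beyond their spread. Choroid plexus followed at 130.4, a step larger than the SD, and entorhinal cortex was lowest at 85.2. Mfsd2a (chr4:122946850-122961188), which brings lysophospholipids with docosahexaenoic acid into the brain and is known for holding vesicle transport down, was 31.0 ± 4.56 in medulla, with values from 21.2 to 44.1 and a median of 31.2. Pons followed at 20.8, and cerebellum was lowest at 8.16 ± 2.26 (n = 58), a 3.8-fold range. The steps from medulla to pons and from corpus callosum (11.8) to cerebellum exceeded the SD of the neighbours. Abcb1a (chr5:8660077-8748575) was highest in olfactory bulb, at 17.5 ± 2.43, followed by visual cortex at 12.5, and lowest in subventricular zone at 7.46. Slco1a4 (chr6:141805440-141856199) ran from 50.8 in olfactory bulb to 32.4 in visual cortex. The plot of region levels shows the 10 genes side by side.

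**Figure D1:**
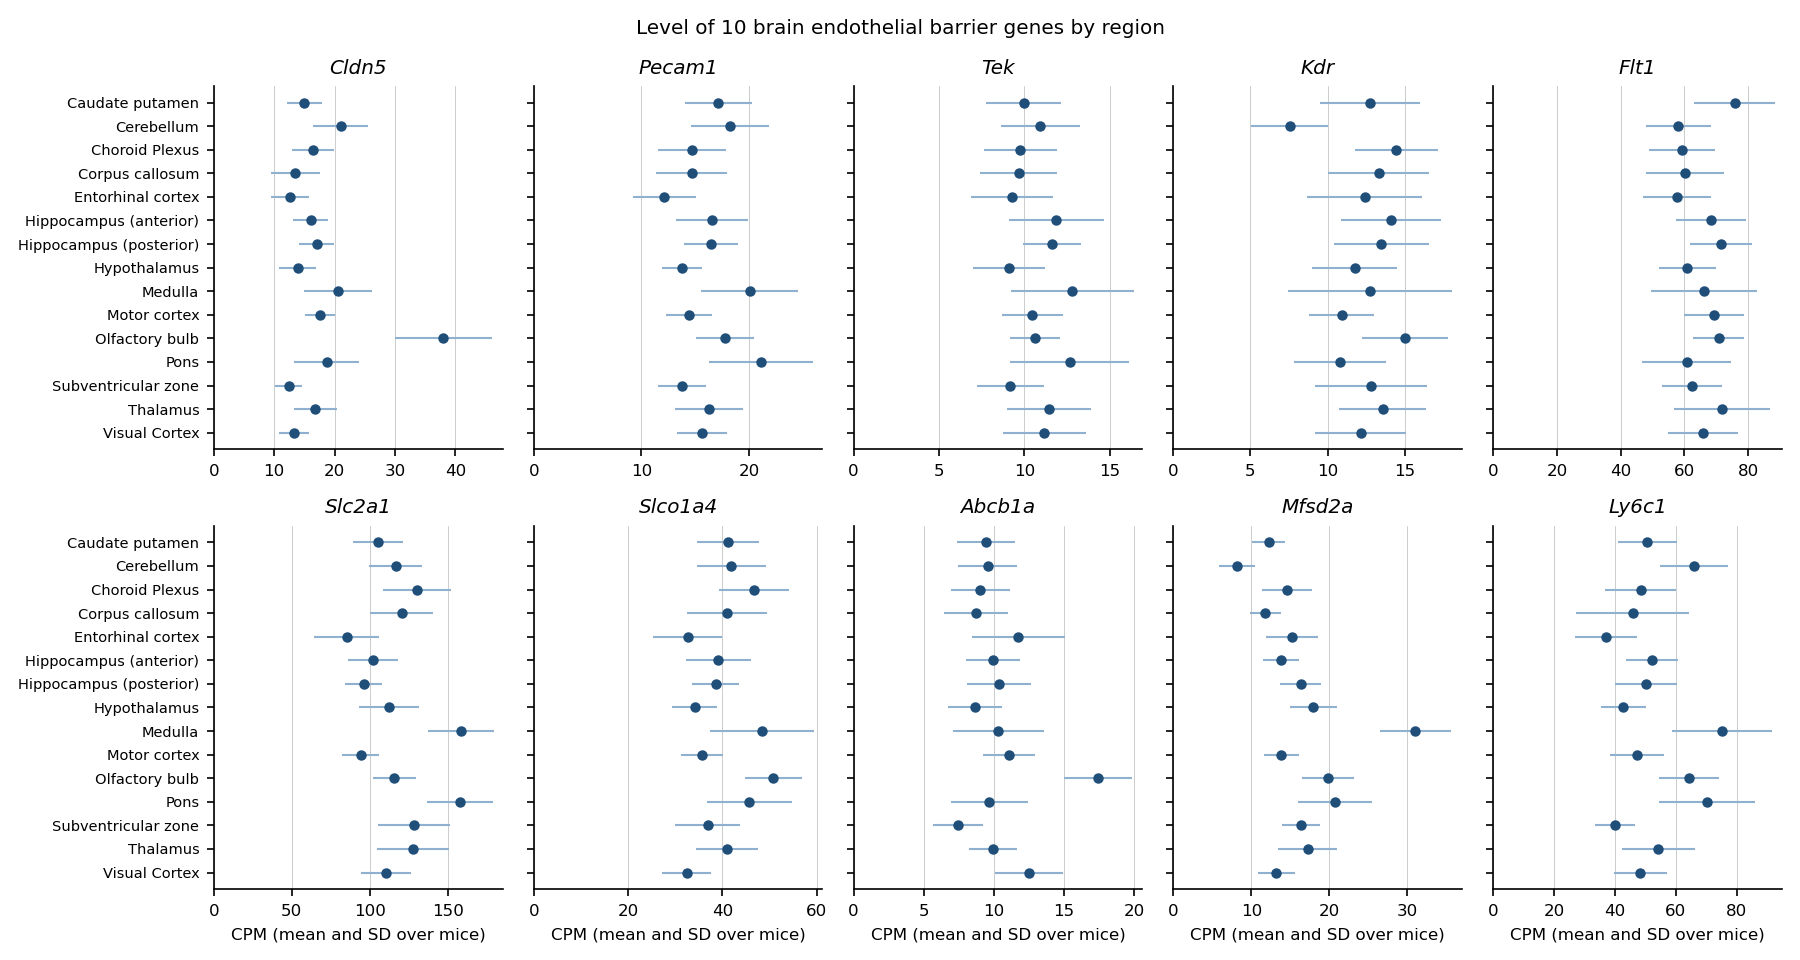
Mean CPM (horizontal axes, starting at 0) of each of the 10 genes in each of the 15 regions (vertical axes), with error bars of 1 SD over 51 to 59 mice. Cldn5 and Abcb1a stand highest in olfactory bulb, and Mfsd2a ranges from 31.0 CPM in medulla to 8.16 in cerebellum.

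Differences between regions were tested for choroid plexus, corpus callosum, cerebellum and hypothalamus, each against motor cortex, with edgeR's quasi-likelihood test fitted to all genes. A gene was called when its p, adjusted by the Benjamini-Hochberg method over the genes tested in that comparison, was under 0.05. Among the 10 genes, 33 of the 40 tests were called, 13 higher and 20 lower than motor cortex. Nearly all genes differed between these regions: 86.5% of all genes were called for choroid plexus, 88.3% for corpus callosum, 91.9% for cerebellum and 89.8% for hypothalamus. The count of calls among the 10 is therefore no more than the background. The 4 comparisons share the motor cortex libraries.

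In choroid plexus, Slc2a1 was higher than in motor cortex by 0.38 log2 units (SE 0.037), Kdr by 0.35 and Slco1a4 by 0.31. Abcb1a was lower there at -0.34 (SE 0.050), Flt1 at -0.31, Tek at -0.19 and Cldn5 at -0.18, and Mfsd2a, Pecam1 and Ly6c1 were not called. Corpus callosum, a white matter tract, had the same 3 genes higher, Slc2a1 at 0.32, Kdr at 0.25 and Slco1a4 at 0.16. The epithelial marker Ttr was also present in the corpus callosum libraries, at a median of 452 CPM and up to 16900. Its median in motor cortex was 0. The part of choroid plexus epithelium in these differences was not tested. Lower in corpus callosum were Cldn5 at -0.41 (SE 0.058), Abcb1a at -0.36, Mfsd2a at -0.26, Flt1 at -0.25 and Tek at -0.16.

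Cerebellum had the largest single difference of the 40. Mfsd2a was lower there at -0.91 log2 units (SE 0.049), a difference of -46.7%, and Kdr at -0.64 (SE 0.061), Flt1 at -0.39 and Abcb1a at -0.31 were also lower. Ly6c1 at 0.35 and Pecam1 at 0.20 were higher in cerebellum, as were Slc2a1 at 0.16, Cldn5 at 0.12 and Slco1a4 at 0.091, the last 2 of which were not called by DESeq2. In hypothalamus 7 of the genes were lower, led by Cldn5 at -0.515 (SE 0.046), Abcb1a at -0.50, Tek at -0.38 and Flt1 at -0.345. Slco1a4, Pecam1 and Ly6c1 were lower there by smaller amounts, and Mfsd2a at 0.21 and Slc2a1 at 0.096 were higher.

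Change with age was tested in each region as a straight line over the 7 ages, with sex in the fit, again with edgeR over all genes. Of the 150 slopes, 10 genes in 15 regions, 13 rose and 12 fell. Over all genes and regions 11.5% of slopes were called, 6.37% rising and 5.1% falling, and the median slope of the 10 genes was 0.000737 log2 units per month, where the median of all genes lay between -0.000558 and 0.000564 in the 15 regions. As a group the 10 genes thus did not move in one direction. The calls belonged mainly to 2 of them, Mfsd2a with 10 of the 12 falling slopes and Kdr with 6 of the 13 rising ones.

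Mfsd2a had a negative slope in all 15 regions and fell in 10 of them. In anterior hippocampus it ran from 13.2 to 19.2 CPM with a median of 16.1 in the 10 mice at 3 months, and was 11.3, 9.01 and 12.6 CPM in the 3 mice at 28 months, so the groups did not overlap. The slope there was -0.0177 log2 units per month (SE 0.0035, edgeR adjusted p = 0.000248), which over 25 months is a difference of -26.4%. In visual cortex the 10 values at 3 months lay between 12.4 and 19.6 CPM with a median of 15.3, and those at 28 months were 10.7, 10.1 and 11.9. Here too no old mouse reached the lowest young one, and the slope was -0.0183 (SE 0.0040, edgeR adjusted p = 0.00132).

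In olfactory bulb Mfsd2a lay between 20.7 and 25.4 CPM at 3 months, with a median of 23.5, and was 17.2, 17.5 and 20.3 at 28 months. In choroid plexus it lay between 14.3 and 25.4 at 3 months, with a median of 16.1, against 11.0, 9.15 and 12.7. Neither pair of groups overlapped, although mice of ages in between spanned both. Medulla, the region with most Mfsd2a, had values from 31.4 to 44.1 CPM at 3 months with a median of 36.3, and 24.4, 29.3 and 36.4 at 28 months, which overlap. Its slope was -0.0155 (SE 0.0034, edgeR adjusted p = 0.000768).

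The other 5 regions where Mfsd2a fell were pons at -0.0202 (edgeR adjusted p = 0.00975), cerebellum at -0.0199 (0.01), thalamus at -0.0186 (0.0379), hypothalamus at -0.0162 (0.00444) and caudate putamen at -0.0121 (0.0234). When 12 of the mice, 1 from each group of sex and age, were left out in turn, 3 of the 10 calls ended: pons and caudate putamen without mouse 17 (edgeR adjusted p = 0.0538 and 0.0531) and thalamus without mouse 57 (0.0741). The slopes in motor cortex at -0.0089, subventricular zone at -0.0106, corpus callosum at -0.00762, entorhinal cortex at -0.00674 and posterior hippocampus at -0.00166 were not called. In posterior hippocampus the mean was 17.2 ± 3.01 CPM (n = 10) at 3 months and 15.0 ± 3.60 (n = 3) at 28, well within the spread. Among the mice numbered 16 to 56 alone, which leaves out 12, 26 and 28 months, Mfsd2a again fell in 10 regions, with subventricular zone in place of hypothalamus. The panels of Mfsd2a by age show each region.

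**Figure D2:**
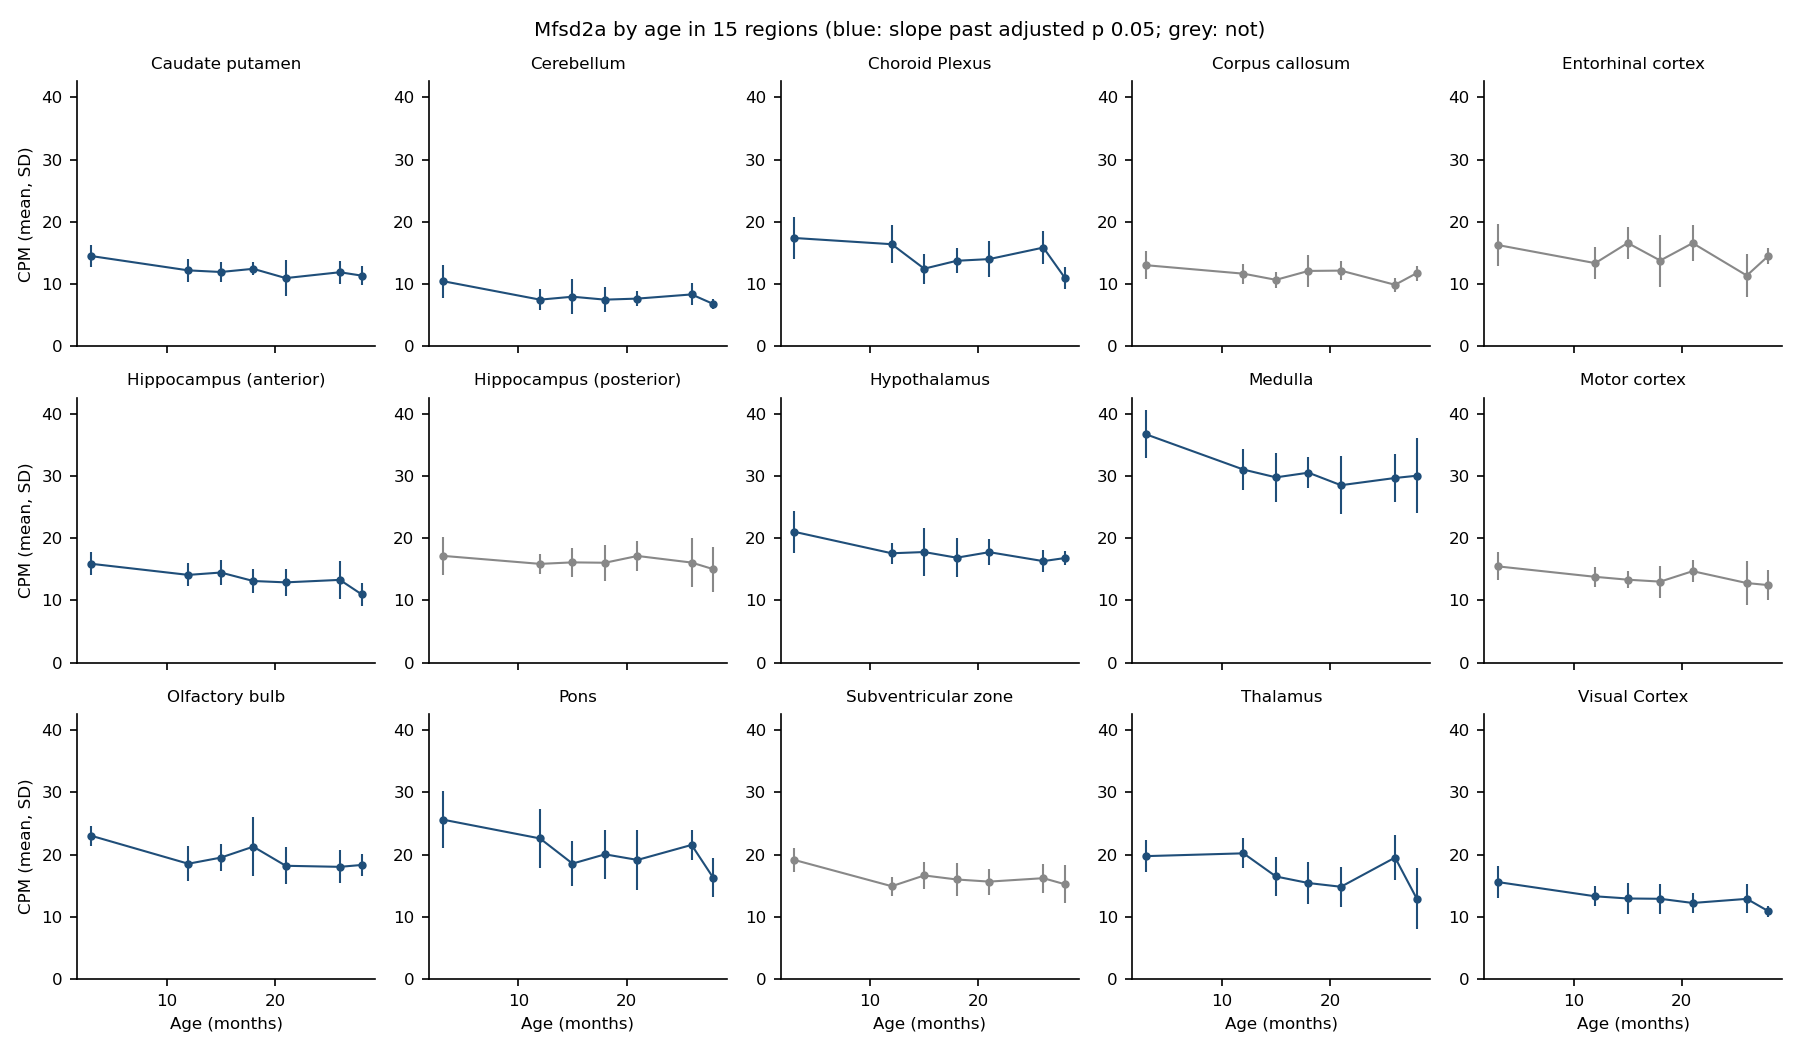
Mfsd2a in CPM (vertical axis) against age in months in each of the 15 regions, as mean and SD over mice, in blue where the edgeR age slope was called and in grey where it was not. Means at 28 months lie below those at 3 months in every panel, from 36.7 to 30.0 CPM in medulla and from 10.5 to 6.81 CPM in cerebellum.

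Each later age was also compared with 3 months, region by region. These comparisons share the 3-month libraries and so are not independent of each other. Of 900 tests on the 10 genes, 31 were lower and 5 higher, against 1.64% lower and 2.29% higher over all genes, regions and ages. Mfsd2a made up 26 of the 31 lower calls: 3 regions at 12 months, 4 at 15, 2 at 18, 9 at 21, 3 at 26 and 5 at 28 months. The remaining lower calls were Abcb1a in corpus callosum at 15 months (-0.56 log2 units), Pecam1 in anterior hippocampus at 12 months (-0.37), Tek in subventricular zone at 12 months (-0.43) and Slc2a1 in visual cortex at 21 and 28 months (-0.25 and -0.54). The higher calls were Kdr in posterior hippocampus at 21 months (0.42) and in medulla at 28 months (1.36), Ly6c1 in olfactory bulb at 21 and 26 months (0.40 and 0.54), and Abcb1a in olfactory bulb at 26 months (0.32).

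Without a model, the 3-month and 28-month groups failed to overlap for 6 lower and 1 higher of the 150 pairs of gene and region, where 2.16% of all genes lay wholly below and 3.83% wholly above. Mfsd2a accounted for 4 of the 6, the regions given above. The other 2 were Tek and Slc2a1 in visual cortex, where 1.93% of genes lay wholly below. Tek there was 9.95 to 17.2 CPM at 3 months (median 11.6) and 8.65, 9.53 and 8.72 at 28 months. Slc2a1 lay wholly above in hypothalamus, at 154.0 and 156.0 CPM in the 2 mice sampled at 28 months against 90.5 to 128.2 at 3 months (median 110.7), in a region where 11.0% of genes lay wholly above.

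Kdr had a positive slope in all 15 regions and rose in 6. In caudate putamen it ran from 7.20 to 17.8 CPM in the 9 mice at 3 months (median 10.2), and from 12.0 to 21.0 in the 5 mice at 26 months (median 14.8). The groups overlapped, and the 28-month mice were back within the young range at 9.45 to 14.5. The slope was 0.0201 log2 units per month (SE 0.0059, edgeR adjusted p = 0.0137). Kdr also rose in posterior hippocampus at 0.0195, anterior hippocampus at 0.0168, choroid plexus at 0.0146, motor cortex at 0.0122 and medulla at 0.0271. The call in motor cortex ended in 6 of the 12 fits that left out 1 mouse, with edgeR adjusted p up to 0.0792. Among the mice numbered 16 to 56 alone, 1 of the 6 remained, choroid plexus.

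In medulla the Kdr values at 28 months stood above most of those at other ages. At 3 months Kdr lay between 6.39 and 20.3 CPM (median 10.0), at 21 months between 6.79 and 22.1 (median 9.57), and the 3 mice at 28 months had 25.9, 19.7 and 24.8. The 28-month values exceeded 3 months by 1.36 log2 units (SE 0.263, edgeR adjusted p = 0.000193), a 2.57-fold difference, in a comparison that called 24.8% of all genes. All 3 are males, and no male of 3 to 21 months exceeded 15.6 CPM in medulla, while the 26-month males ranged from 8.8 to 22.6 and overlap them. The summed general endothelial markers in these libraries were 341 to 384 CPM against 210 to 355 at 3 months, and their part in the difference was not tested. Among the mice numbered 16 to 56 the medulla slope was 0.0095 (edgeR adjusted p = 0.69), in a fit that lacks the 12-month mice as well as those of 26 and 28 months. Without mouse 57, of 28 months, it was 0.0238 (edgeR adjusted p = 0.0623).

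Ly6c1 rose in olfactory bulb at 0.0186 log2 units per month (SE 0.0031, edgeR adjusted p = 1.39e-05), where 16.8% of all genes had a called slope, and in posterior hippocampus at 0.0152. In olfactory bulb it lay between 48.4 and 61.1 CPM at 3 months (median 56.2), between 60.0 and 98.3 at 21 months (median 73.7) and between 66.3 and 90.1 in the 5 mice at 26 months (median 77.1). The 26-month group lay wholly above the 3-month group, a pair of ages for which no share of all genes is given. The 3 mice at 28 months, at 58.3 to 64.6, were close to the young ones. The near copy Ly6c2 averaged 1.55 CPM in olfactory bulb, with a highest value of 8.42. In the 4 regions where Ly6c2 was tested, its slopes ran from 0.0176 to 0.0897 and 0 were called. The part of Ly6c2 reads in the rise of Ly6c1 was not tested. Abcb1a rose in olfactory bulb too, at 0.00998, with values of 10.9 to 20.2 CPM at 3 months and 17.6 to 21.4 at 26 months, which overlap. That call ended without mouse 17 (edgeR adjusted p = 0.0747) and without mouse 57 (0.0665).

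In choroid plexus 4 of the 10 genes rose and 1 fell, where 11.5% of all genes rose and 20.8% had a called slope in either direction. Kdr rose at 0.0146, Pecam1 at 0.0144, Slc2a1 at 0.0123 and Slco1a4 at 0.0122 log2 units per month, while Mfsd2a fell at -0.017. Slco1a4 lay between 26.1 and 56.0 CPM at 3 months (median 44.9) and at 48.6 to 51.7 in the 3 mice at 28 months, inside that range. With the mean of the general endothelial genes added to the fit as a covariate, the slopes were smaller, at 0.009 for Slc2a1 (edgeR adjusted p = 0.0938), 0.00865 for Slco1a4 (0.0611) and 0.00739 for Pecam1 (0.14), and Kdr remained called at 0.0106 (0.0419). Without mouse 17, and with no covariate, these slopes were 0.0115 for Slc2a1 (edgeR adjusted p = 0.0517), 0.00955 for Slco1a4 (0.0736) and 0.0126 for Pecam1 (0.0765). Pecam1 also rose in posterior hippocampus, at 0.012.

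Falling slopes outside Mfsd2a were Slco1a4 in motor cortex at -0.00817, a call that ended without mouse 37 (edgeR adjusted p = 0.0699) or mouse 57 (0.0579), and Slc2a1 in visual cortex at -0.0133 (SE 0.0033, edgeR adjusted p = 0.00531). In visual cortex Slc2a1 lay between 99.7 and 160.4 CPM at 3 months (median 121.2) and was 82.8, 96.8 and 85.8 at 28 months, with no overlap. Cldn5, Flt1 and Tek had no called slope in any region by edgeR, with 2, 1 and 1 regions at an unadjusted p under 0.05. DESeq2 called Cldn5 in choroid plexus (adjusted p = 0.0419). The map of slopes shows the rows of Mfsd2a and Kdr with 1 sign throughout, as is that of Abcb1b described further on, and mixed signs in the rows of the other 8 genes.

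**Figure D3:**
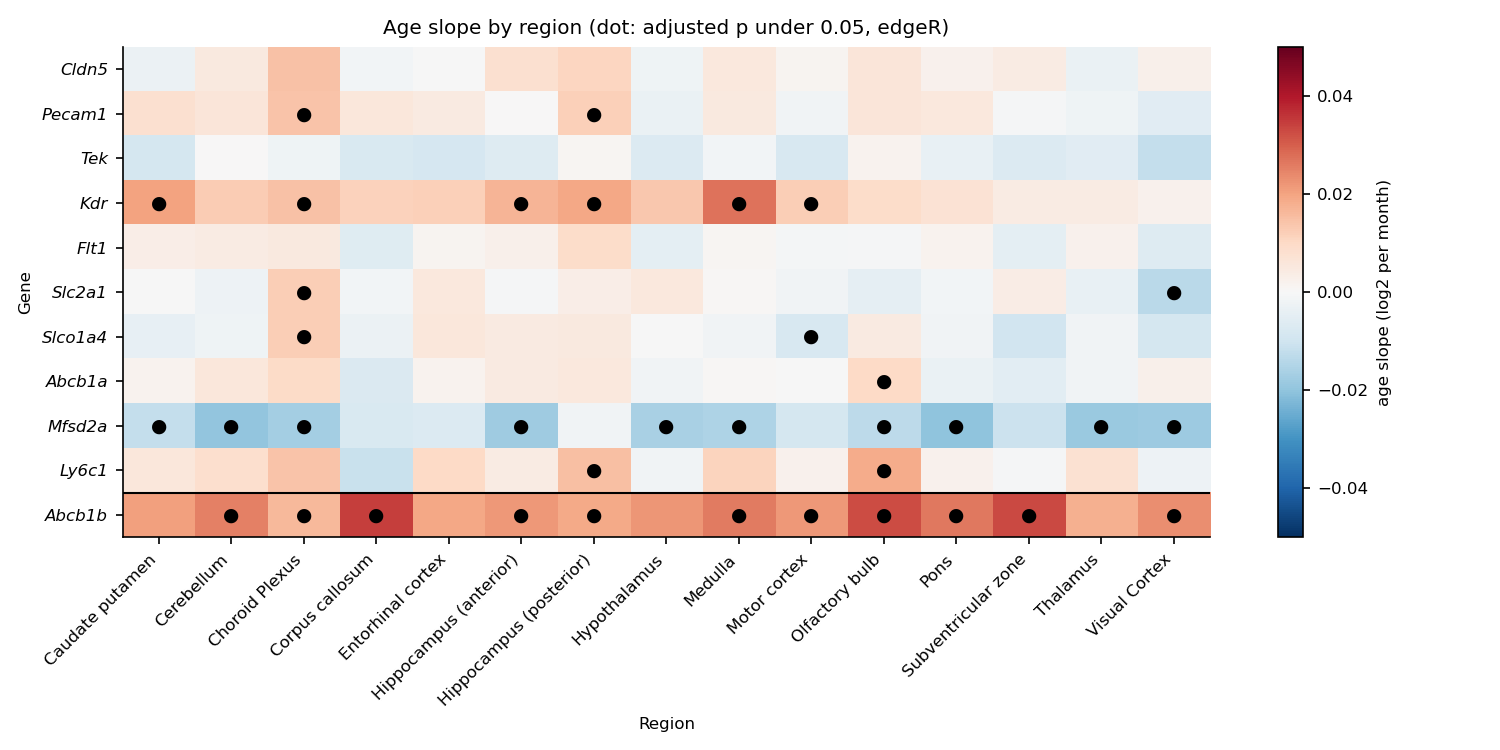
Age slope in log2 units per month (colour, red rising and blue falling) of the 10 genes and Abcb1b (rows) in the 15 regions (columns), with a dot where the edgeR adjusted p was under 0.05. Mfsd2a is negative in 15 of 15 regions with 10 dots, Kdr positive in 15 with 6 dots and Abcb1b positive in 15 with 11 dots.

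Whether slopes differed between regions was tested as an age by region term against motor cortex, with the same 4 regions and edgeR. Of the 10 genes, 1 was called in choroid plexus and 0 in the other 3, where 5.37% of all genes were called in choroid plexus, 3.08% in corpus callosum, 5.09% in cerebellum and 1.04% in hypothalamus. The one call was Slco1a4, whose slope in choroid plexus exceeded that in motor cortex by 0.0201 log2 units per month (SE 0.0048, edgeR adjusted p = 0.0054), a slope that rose in the first region and fell in the second. The libraries of 1 mouse are paired between regions, and with the mouse as a replicate block Slc2a1 in choroid plexus was called as well (edgeR adjusted p = 0.0217). For Mfsd2a the difference in slope was not called in any of the 4 pairs, and its slopes in these regions were all negative.

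Because libraries of 1 mouse share that animal, a summary with 1 value per mouse was added: log2 CPM centred within each region and averaged over the regions of a mouse, tested with limma. In that fit 48.4% of all genes changed with age, 22.5% rising and 25.9% falling, so 4 calls among 10 genes is not more than the background. The median slope of the 10 was 0.00117 and that of all genes -0.000333. Mfsd2a fell by 0.0138 log2 units per month (SE 0.0021, limma adjusted p = 1.93e-07), a difference of -21.3% over 25 months. Tek fell by 0.00518 (SE 0.0021, limma adjusted p = 0.0329). Kdr rose by 0.0114 (SE 0.0033, limma adjusted p = 0.00339) and Pecam1 by 0.00365 (SE 0.0015, limma adjusted p = 0.036). With each of the 59 mice left out in turn, the call of Tek ended without mouse 17, 21, 41, 44 or 45 (limma adjusted p up to 0.0925). That of Pecam1 ended without mouse 5, 11, 14, 37, 41, 52, 53 or 59 (up to 0.0774), and those of Mfsd2a and Kdr were kept. The slopes of Ly6c1 at 0.00575, Cldn5 at 0.00356, Abcb1a at 0.00176, Flt1 at 0.000582, Slc2a1 at 0.000304 and Slco1a4 at -0.000601 were not called.

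On this scale, where 0 is the mean of a region over all mice, Mfsd2a lay between 0.04 and 0.42 in the 10 mice at 3 months (median 0.21) and between -0.14 and 0.12 at 12 months (median 0.01). The 28-month mice lay between -0.26 and -0.08, wholly below the 3-month mice. No share of all genes separated in this way is given here for the values per mouse. Against 3 months the difference of Mfsd2a was -0.215 log2 units at 12 months (limma adjusted p = 0.00251), -0.26 at 15, -0.28 at 18, -0.28 at 21, -0.27 at 26 and -0.41 (limma adjusted p = 1.93e-05) at 28 months, all called. A lower level was thus already present at 12 months, and the means at 15 to 26 months were close together. The share of all genes called in these comparisons was 11.3% at 12 months, 11.6% at 15, 28.1% at 18, 36.7% at 21, 31.9% at 26 and 32.4% at 28 months.

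Tek lay between -0.03 and 0.26 at 3 months (median 0.12), between -0.17 and 0.08 at 12 months, and between -0.08 and 0.06 at 28 months. It was lower than at 3 months at 12, 18 and 21 months (-0.15, -0.15 and -0.17) but not called at 15, 26 or 28 months. Slco1a4 was called at 12 months alone, at -0.175 (limma adjusted p = 0.0104), where age cannot be told apart from the number block. Kdr was higher at 21 months by 0.20, and Pecam1 (0.13) and Ly6c1 (0.23) were higher at 26 months. Cldn5 and Flt1 were not called at any age. The plot of 1 point per mouse shows these courses.

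**Figure D4:**
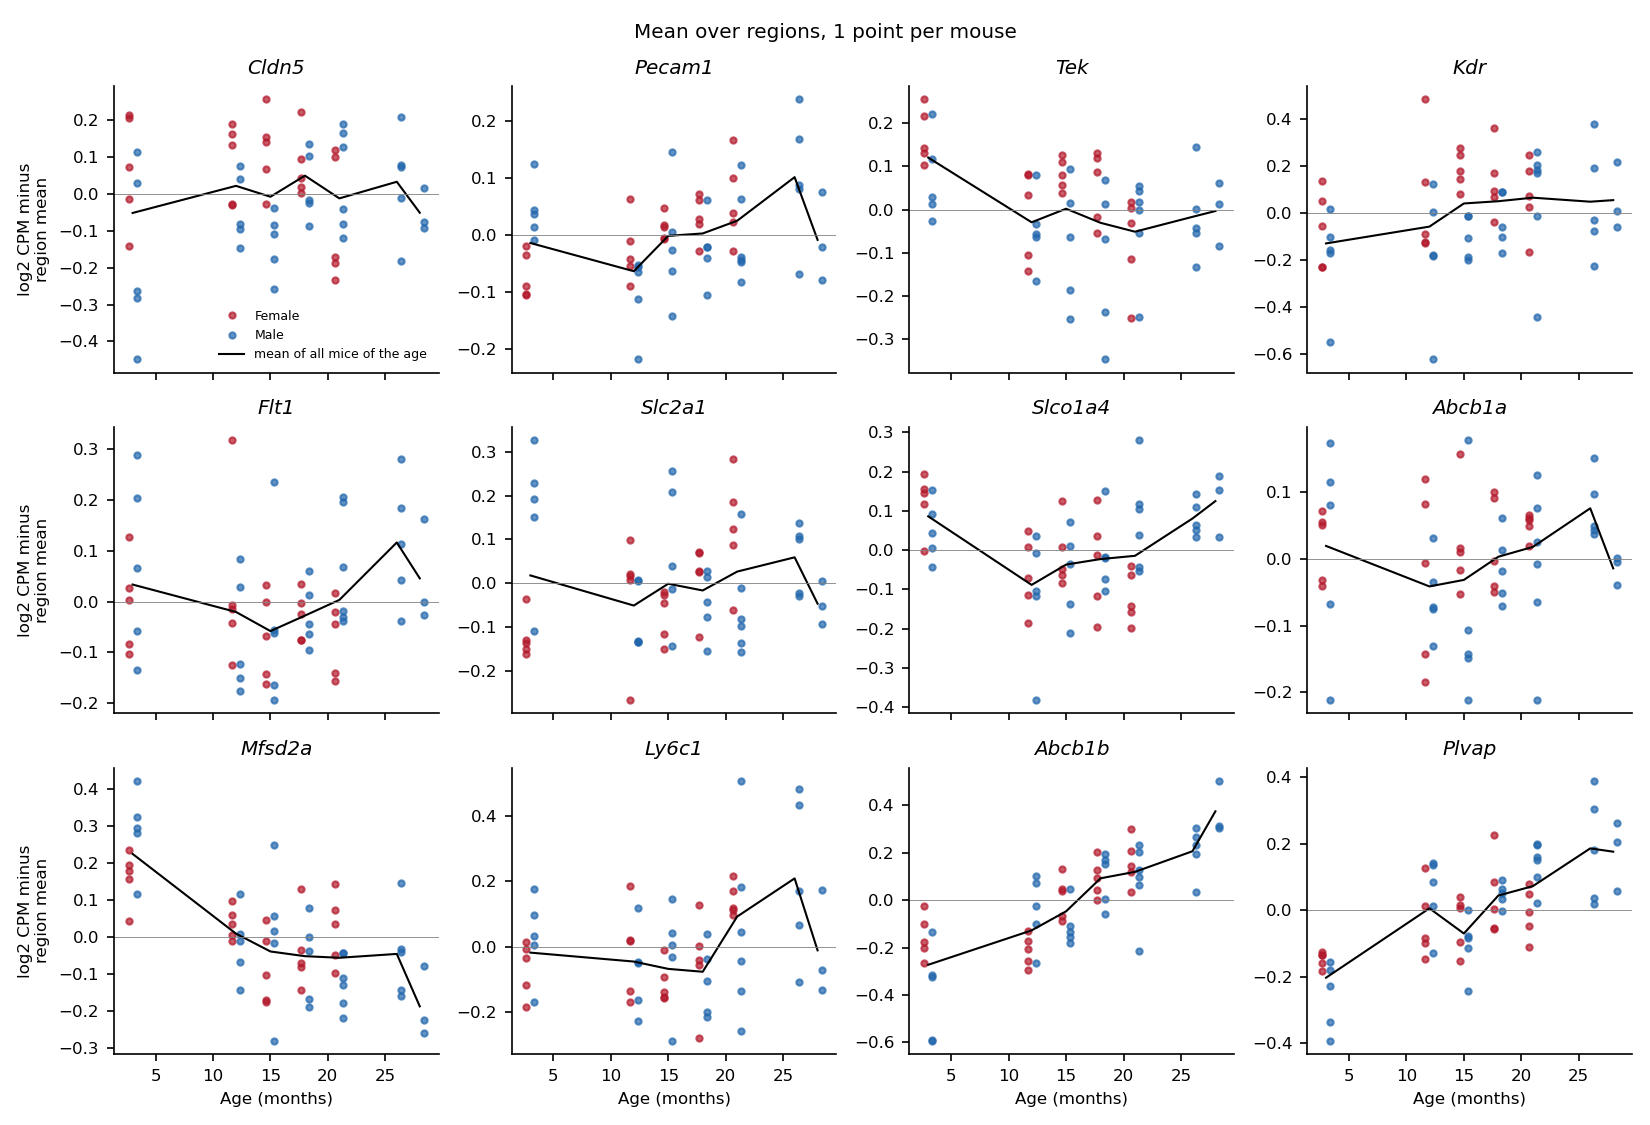
Each point is 1 mouse, its log2 CPM centred within region and averaged over its regions (vertical axis), against age in months, for the 10 genes, Abcb1b and Plvap, with females and males in separate colours and a line through the means. The Mfsd2a points at 28 months (-0.26 to -0.08) lie below all those at 3 months (0.04 to 0.42), and those of Abcb1b at 28 months (0.31 to 0.51) above all those at 3 months (-0.59 to -0.02). The share of all genes separated in this way is not given.

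Abcb1b, the near copy of Abcb1a, had a positive slope in all 15 regions, from 0.0163 to 0.0347 log2 units per month, and rose in 11. In corpus callosum Abcb1b lay between 1.80 and 4.08 CPM at 3 months (median 2.58) and was 4.57 to 5.66 at 28 months, without overlap. In that region 4.8% of all genes lay wholly above at 28 months. As 1 value per mouse it rose by 0.0243 (SE 0.0025, limma adjusted p = 1.4e-12), while Abcb1a, the copy known from barrier endothelium, was not called. The difference between the slopes of the copies was not tested.

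Between the sexes, compared at the 5 ages that both have with age in the fit, 2 of 150 tests were called by edgeR, both Kdr and both lower in males, against 3.01% of tests over all genes. In medulla Kdr lay between 6.52 and 29.7 CPM in 24 females (median 14.3) and between 6.39 and 15.6 in 26 males (median 9.90). The ranges overlapped, with a difference of -0.565 log2 units, in a region where 24.6% of all genes were called. In motor cortex it lay between 7.99 and 16.5 in 25 females (median 11.3) and between 7.31 and 16.0 in 26 males (median 9.71), a difference of -0.24, where 3.81% of genes were called. This motor cortex call ended in 8 of 10 fits that left out 1 mouse (edgeR adjusted p up to 0.0739). As 1 value per mouse the difference for Kdr, male minus female, was -0.16 (SE 0.051, limma adjusted p = 0.0409, 7.99% of genes called), and this call was lost among the mice numbered 16 to 56 (limma adjusted p = 0.0615) and when any of 18 single mice was left out (up to 0.065). Cldn5 was lower in males in 13 of 15 regions without a call, with a limma adjusted p of 0.0838 for the values per mouse.

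No slope of the 10 genes was called as differing between the sexes in any region by edgeR, 0 of 150 against 0.0694% over all genes. Unadjusted p-values were under 0.05 for Slc2a1 in 10 of 15 regions, all with the lower slope in males, and DESeq2 called 1, in corpus callosum. As 1 value per mouse the slope of Slc2a1 in males minus that in females was -0.0224 log2 units per month (SE 0.0051, limma adjusted p = 0.00788), where 3.61% of genes were called. At 3 months the 5 females lay between -0.16 and -0.04 and the 5 males between -0.11 and 0.33, and at 21 months the females lay between -0.06 and 0.28 and the 6 males between -0.16 and 0.16. The sexes overlapped at both ages. Restricted to the 37 mice with all 15 regions, the difference was -0.0162 with a limma adjusted p of 0.198. For Mfsd2a the slope was also the lower one in males in 15 of 15 regions, with an unadjusted p under 0.05 in 2. Per mouse, over 3 to 21 months, the Mfsd2a slope was -0.0101 in 25 females and -0.0218 in 26 males. That difference of -0.0117 was not called (limma adjusted p = 0.153).

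The 10 genes varied together from library to library to different degrees. After the region mean was taken off each gene, the correlation of log2 CPM over the 847 libraries, which share mice, ran from -0.00583 to 0.634 over the 45 pairs, with a median of 0.406. Flt1 followed the mean of the other 9 most closely (r = 0.774) and Mfsd2a least (r = 0.177). Flt1 was also the closest partner of Cldn5 (0.504), Pecam1 (0.592), Ly6c1 (0.549), Slco1a4 (0.634), Kdr (0.407) and Abcb1a (0.558). The closest partner of Tek was Slco1a4 (0.551), that of Slc2a1 was Ly6c1 (0.51) and that of Mfsd2a was Slc2a1 (0.271). Among 14180 genes at a mean of at least 1 CPM, those most like the mean of the 10 were Ptprb (0.729), Eng (0.697), Adgrl4 (0.693), Adgrf5 (0.681), Rgs5 (0.677), Esam (0.624), Epas1 (0.62), Sgms1 (0.583), Pdgfrb (0.562) and Ets1 (0.556). Rgs5 and Pdgfrb are pericyte markers. Within single regions the correlations varied widely, for Ptprb from 0.424 to 0.844 and for Adgrl4 from 0.0693 to 0.857. That of Cldn5 with the other 9 ran from -0.043 to 0.794.

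Other genes of the same vessels and pathways were counted from lists chosen by function, by the region slopes and by the values per mouse, against the shares of all genes given above (11.5% and 48.4%). Of 10 endothelial junction genes, 8 of 149 region slopes rose and 3 fell (median -0.00129 log2 units per month). Per mouse, F11r, a junctional adhesion molecule, rose at 0.00853 log2 units per month and Jam2, another of that family, fell at -0.00302. Of 10 further barrier transporters, 3 of 150 region slopes rose and 9 fell (median -0.00148). Per mouse 4 fell, led by the thyroid hormone transporter Slco1c1 at -0.00933, the efflux pump Abcg2 at -0.00695 and the amino acid transporter Slc7a5 at -0.00491, and 2 rose, led by the monocarboxylate transporter Slc16a1 at 0.00627.

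Of 11 genes of VEGF and angiopoietin signalling, 8 of 165 region slopes rose and 3 fell (median 0.000828). Per mouse the ligands Angpt2 (0.0092), Angpt1 (0.00787) and Vegfa (0.00611) rose and the receptor Tie1 (-0.00791) fell. Of 12 genes of the Wnt pathway that maintains brain endothelium, 5 of 180 region slopes rose and 9 fell (median -0.001). Per mouse Reck, a coreceptor for Wnt7 ligands, rose at 0.00991, Sox17 rose at 0.00835 and Apcdd1 fell at -0.00854. In both lists the called share was below that of all genes, by region slopes (11.5%) and per mouse (48.4%). Angpt2 was called in 0 of 15 regions.

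Of 14 general endothelial markers, 13 of 210 region slopes rose and 11 fell (median -0.00024). Per mouse Eng rose at 0.0103 and Podxl at 0.00862, while Cd93 fell at -0.015 and Itm2a at -0.0103. Genes of permeable or activated endothelium rose in 28 of 124 region slopes and fell in 12 (median 0.00358). Per mouse Lrg1 rose at 0.0401 (SE 0.0134), from a low average log2 CPM of 0.448, and Vwf, the von Willebrand factor, at 0.0267. Plvap rose at 0.015 (SE 0.0019, limma adjusted p = 2.35e-09) and Cav1, the caveolae protein, at 0.00989, while Nostrin fell at -0.0155. Icam1 and Vcam1 went the other way by region, with 3 falling slopes each and 0 rising. Selp fell in 2 of the 4 regions where it was tested and rose in 0. The slopes per mouse of Icam1 (0.00204) and Vcam1 (-0.00698) were not called. Plvap was between -0.39 and -0.12 in the mice at 3 months and between 0.06 and 0.26 at 28 months, without overlap. For such separations of the values per mouse no share of all genes is given. By region, the Plvap median was 11.6 CPM in choroid plexus, 14.4 in motor cortex and 30.3 in cerebellum, so its level did not follow fenestrated tissue.

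Markers of other cell types moved with age in the same libraries. Vascular muscle markers fell in 13 of 66 region slopes and rose in 0 (median -0.0126), and per mouse all 4 tested fell, Tagln at -0.0154 and Acta2 at -0.0143 most. Pericyte markers rose in 4 and fell in 2 of 115. Fibroblast markers rose in 2 and fell in 10 of 75, led by Col3a1 with 4 falling. Microglia markers rose in 56 of 90 and fell in 2. Leukocyte and platelet markers rose in 18 of 60 and fell in 1, with Ptprc making up 13 of the 18. Astrocyte markers rose in 20 and fell in 8 of 90, with Gfap making up 12 of the 20. Blood cell genes (haemoglobins and Alas2) rose in 16 of 75, oligodendrocyte markers in 8 of 75 and ependymal markers in 6 of 58, and none of these fell. Neuronal markers rose in 4 and fell in 12 of 120, and choroid plexus epithelial markers rose in 9 and fell in 3 of 95. Their part in the slopes of the 10 genes was not tested. With the mean of neuronal markers in the fit Mfsd2a fell in 9 regions, and with that of general endothelial markers or of choroid plexus epithelium in 10.

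**Figure D5:**
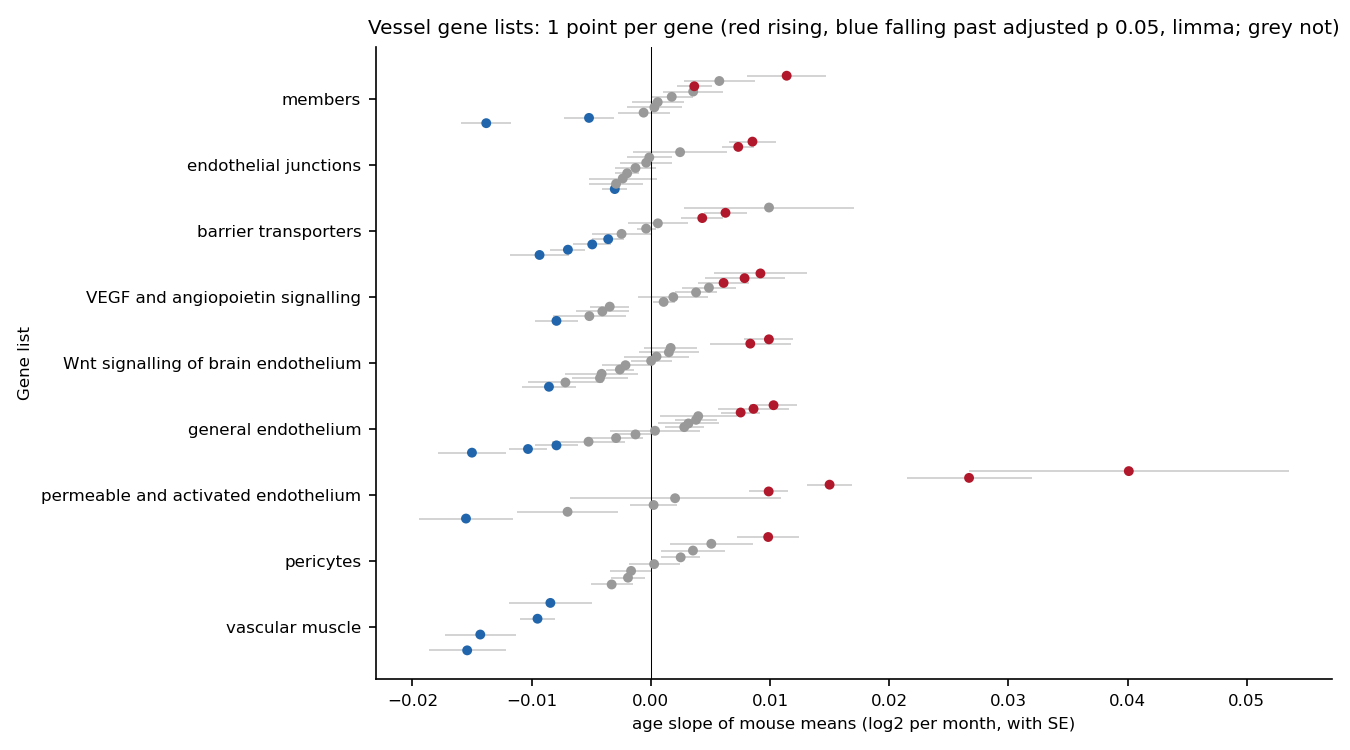
Age slope of the values per mouse (horizontal axis, log2 units per month, bars of 1 SE) for the genes of each vessel list, coloured red where limma called a rise and blue where it called a fall. The 4 vascular muscle genes tested all lie below 0, and Mfsd2a at -0.0138 is the lowest of the 10 barrier genes.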

How the data were processed

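The deposited table holds whole-number read counts per gene and library, made by the authors. Per the labels' protocols, RNA was extracted with RNeasy columns and made into Smart-Seq2 and Nextera XT libraries. The submitters' processing notes name Trim Galore 0.3.7, STAR 2.5.3a, DESeq2 and GRCm38. The annotation and counting program are not given in the sources used here. All columns matched a labelled sample. CPM were computed from column totals, and log2 CPM with a prior count of 2. For the values per mouse, log2 CPM used library sizes scaled by TMM factors computed within each region. Tests used edgeR 4.0.16 (TMM factors, filterByExpr, glmQLFit and glmQLFTest) and limma 3.58.1 in R 4.3.3, with Benjamini-Hochberg adjustment and a threshold of 0.05. DESeq2 1.42.0 was an alternative. limma was run on 1 value per mouse, for genes averaging 1 CPM or more over all libraries, a test chosen after seeing the data. Alternatives changed the scaling, filter, dispersion, covariates, libraries and mice, 1 at a time. The edgeR and limma steps were tested on simulated data.

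The 10 genes and the other lists were chosen with earlier results of these data known. All 10 genes were described in every comparison. From each other list the up to 4 genes with the largest called change were named, with further genes for permeable or activated endothelium. The genes most like the 10 were the 10 with the highest correlation. Pairing between regions comes from the mouse numbers in the labels. The deviations of the 2 libraries of a mouse correlated weakly, with a median r of 0.038 for choroid plexus, 0.05 for corpus callosum, 0.0272 for cerebellum and 0.0325 for hypothalamus against motor cortex. The number of mice, and for genes of low level the depth of the library, limits precision, and with 3 mice at 28 months that group is the least certain. The values of 1 listed vessel gene are not reported here.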

Additional observations from a re-analysis of the deposited data

Results flagged for a closer look

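For Flt1, the value per mouse of 1 mouse at 12 months, 0.318 log2 units above the mean of its regions, lay far from the other 9, which ranged from -0.176 to 0.084. At 15 months 1 mouse lay at 0.235, and the other 9 from -0.194 to 0.033. In both groups of 10 the gap exceeded the limit that chance passes in about 1 of 20 groups, and 50 groups were examined. The age slope of Slco1a4 differed between choroid plexus and motor cortex by 0.0201 log2 units per month in 116 libraries, by the test of the difference itself. The age slope of Slc2a1, as 1 value per mouse, differed between males and females by -0.0224 log2 units per month in 51 mice, also by a test of the difference.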

How the results depend on the processing

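Counts of calls among the 10 genes moved by over 1.5 times under some alternatives, and the cause was not tested unless given. Among mice 16 to 56 alone, which leaves fewer mice and ages, 2 region slopes rose in place of 13, comparisons with 3 months gave 2 higher and 18 lower calls in place of 5 and 31, and the sexes 1 higher and 1 lower in place of 0 and 2. Rising slopes numbered 7 with depth covariates, with the general endothelium covariate and in males alone. Higher calls against 3 months numbered 8 with DESeq2 and 8 in males alone. Lower calls between the sexes numbered 0 in 12-month mice alone and 1 with a trended dispersion, and DESeq2 gave 1 for slopes between the sexes. With the replicate block (mouse) the age by region term had 2 higher calls in place of 1, and the levels between regions gained 1 call, Ly6c1 lower in corpus callosum. The block changed no other call.

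Per mouse, rising slopes numbered 2, falling to 1 in mice 16 to 56, without choroid plexus, without medulla or without the libraries nearest to another region, and 0 in mice with all 15 regions. Falling slopes numbered 1 in males alone. Higher calls against 3 months numbered 1 in males alone, in mice 16 to 56 or with no filter and 0 in mice with all 15 regions, in place of 3, and lower calls 5 in mice 16 to 56 in place of 10. The single lower call between the sexes became 0 in mice 16 to 56, in mice with all 15 regions, with no filter, without choroid plexus and without medulla. The single lower slope between the sexes became 2 in mice 16 to 56 and 0 in mice with all 15 regions.

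Slopes per mouse that were not called changed sign: Flt1 was -0.00268 in mice 16 to 56 and -0.00186 in mice with all 15 regions, Slco1a4 0.00469 in males alone, Abcb1a -0.000432 in mice 16 to 56, and Slc2a1 -0.00514 in males alone, -0.000437 in mice 16 to 56 and -0.000618 without choroid plexus. Leaving out each of the 59 mice in turn, they ran from -0.000229 to 0.00203 for Flt1, -0.00132 to 0.000235 for Slco1a4 and -0.000469 to 0.002 for Slc2a1. In the region fits, where 12 mice (10 for the sexes) were left out in turn, 1 from each group of sex and age, there were 9 to 14 rising and 10 to 12 falling region slopes, 3 to 12 higher and 24 to 32 lower calls against 3 months, 1 to 2 lower calls between the sexes and 1 to 2 higher age by region calls. Per mouse, with all 59 left out in turn, there were 1 to 2 rising and 1 to 2 falling slopes, 1 to 4 higher and 9 to 12 lower calls against 3 months, 0 to 2 lower calls between the sexes, and 0 to 1 higher and 1 to 2 lower slopes between the sexes.

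Mfsd2a fell per mouse under every alternative run, and in 7 to 10 regions. Depth limits Abcb1b, Abcb1a, Tek and Kdr most, which are the lowest in reads, and 28 months has 3 mice.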
